A study of Mus musculus with 2 samples.

Results

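The D and E cyclins and the inhibitors of their kinases were examined in CT26 cells, a mouse colon cancer line, with and without knockdown of Setdb1, the gene of an enzyme that methylates a lysine of histone H3. The 10 genes were taken by symbol from a table of 54680 loci: the D cyclins Ccnd1, Ccnd2 and Ccnd3, the E cyclins Ccne1 and Ccne2, the Cip/Kip inhibitors Cdkn1a and Cdkn1b, and the INK4 family genes Cdkn2a, Cdkn2b and Cdkn2c. Each symbol stood on 1 locus. RNA sequencing was done on 1 library of cells with a lentiviral short hairpin RNA against Setdb1 and 1 library of cells with lentivirus carrying the empty knockdown vector, both collected after 6 days in serum-containing RPMI medium. The labels call the knockdown cells differentiated and give the control genotype as wild type. The number of hairpins, and whether either culture grew from 1 clone, are not given in the sources used here.

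Progression from G1 into S phase turns on these genes. D cyclins bind the kinases CDK4 and CDK6, and E cyclins bind CDK2. Both complexes phosphorylate the retinoblastoma protein and its relatives, which releases E2F transcription factors and so the genes of DNA replication. INK4 proteins block CDK4 and CDK6, whereas Cip/Kip proteins bind complete cyclin-kinase complexes and mainly inhibit those with CDK2. Loss of Cdkn2a is known for CT26 cells, so Cdkn2a and its neighbour Cdkn2b also serve as a check of its identity.

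With 1 library per group there was no replicate check and no test. "Higher" and "lower" below describe these 2 libraries, not the conditions. Intervals are 95% exact intervals on reads (Poisson for a level, binomial for a ratio). They cover counting error only, not differences between cultures or library preparations. PCR copies of a molecule are not independent, so the intervals may be too narrow even for counting error. Levels are in FPKM, fragments scaled by gene-model length and by a depth common to both libraries, so they carry the 1.03 ratio of totals. Log2 ratios set the knockdown library over the control library after 1 was added to each FPKM value. Changes of genes at low levels thus come out too small. The libraries held 18421604 reads (control) and 19045830 reads (knockdown). Read ratios are relative to each library's own total. Setdb1 itself went from 1340 reads in the control library to 317 in the knockdown library, a read ratio of 0.229 (0.202 to 0.259).

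Markers of the labelled cell type were checked first. Of 11 epithelial markers, Krt18, Krt19 and Krt20 reached 1 FPKM, Krt19 only through the knockdown library (1 read in the control, 53 in the knockdown library), while Epcam and Cdh1, which define most epithelia, and Cdx1 and Lgr5 had 0 reads in both libraries. Of 7 mesenchymal markers, 6 reached 1 FPKM, 3 of them higher and 3 lower in the knockdown library. Vim stood at 752 FPKM in the control and 835 FPKM in the knockdown library, and Col1a2 at 140 and 94.1 FPKM. The summed level of the epithelial list was 43.2 FPKM in the control and 128 FPKM in the knockdown library. Most of it came from Krt18 (37.7 and 90.0 FPKM) and Krt20 (5.07 and 35.6 FPKM), control first. Below 1 FPKM, Krt8 had 7 and 8 reads, Cdx2 5 and 18, Vil1 1 and 7, and Muc2 3 and 1. The part of these markers in the results below was not tested. The 6 leukocyte and endothelial markers together had 0 reads in the control and 4 in the knockdown library. In bulk RNA, fewer cells in a state and less RNA per cell cannot be told apart.

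The promoters of Ccne1 and Ccnd3 are shown because these were the 2 members that differed by 2-fold or more. Each window runs from 250 bases before to 50 bases after a RefSeq transcription start on GRCm38.p6, printed 5′ to 3′ on the gene's strand. Capitals mark GC boxes (GGGCGG or its reverse complement), the element bound by Sp1-type factors.
Ccne1, chr7:38107441-38107740, minus strand: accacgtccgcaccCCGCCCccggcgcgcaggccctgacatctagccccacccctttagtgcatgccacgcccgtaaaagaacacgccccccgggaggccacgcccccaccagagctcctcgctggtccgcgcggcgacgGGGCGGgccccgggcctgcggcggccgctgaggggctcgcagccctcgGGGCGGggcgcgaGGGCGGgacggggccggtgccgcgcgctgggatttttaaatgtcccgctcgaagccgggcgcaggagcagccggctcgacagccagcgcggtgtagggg
Ccnd3 upstream start, chr17:47504801-47505100, plus strand: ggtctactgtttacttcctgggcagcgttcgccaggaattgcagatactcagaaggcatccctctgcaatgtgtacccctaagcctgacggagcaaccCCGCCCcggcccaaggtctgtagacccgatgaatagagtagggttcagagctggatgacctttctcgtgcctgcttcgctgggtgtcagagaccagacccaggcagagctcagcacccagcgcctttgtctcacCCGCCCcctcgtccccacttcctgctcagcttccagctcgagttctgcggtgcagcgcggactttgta
Ccnd3 downstream start, chr17:47593217-47593516, plus strand: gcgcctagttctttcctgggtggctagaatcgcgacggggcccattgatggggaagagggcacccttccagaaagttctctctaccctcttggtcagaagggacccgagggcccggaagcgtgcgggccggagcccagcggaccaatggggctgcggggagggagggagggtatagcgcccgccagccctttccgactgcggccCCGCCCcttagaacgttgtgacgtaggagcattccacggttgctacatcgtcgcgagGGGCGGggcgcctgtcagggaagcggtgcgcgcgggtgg
The Ccne1 window held 4 GC boxes and each Ccnd3 window 2. Of 32851 promoter windows in the table, 35.7% held at least 1. Members that did not reach 2-fold held them too: the upstream Cdkn2c window had 4, the downstream Cdkn1a window 2 and the Cdkn1b window 1. The downstream Cdkn2c window and the upstream Cdkn1a window had 0. No window was available for Ccnd1, Ccnd2 and Ccne2. G and C made up 76.0% of the Ccne1 window, 59.3% of the upstream and 67.0% of the downstream Ccnd3 window, against 73.3% in the upstream Cdkn2c window and a median of 52.7% over all windows. None of the 3 windows held TTTNGCGC (an E2F motif, in 1.38% of all windows), TGANTCA (AP-1, 7.81%), CACGTG (the E-box bound by MYC, 7.15%) or TGACGTCA (the cyclic AMP response element, 1.79%), on either strand. That says only that these letters are not in these windows. The deposited values are per gene and do not show which Ccnd3 start was used.

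Expressed members were ordered first by level. In the control library Cdkn1a was highest at 225 FPKM, followed by Ccnd1 at 165 FPKM, Cdkn2c at 26.8 FPKM, Ccne1 at 15.5 FPKM, Ccnd2 at 13.3 FPKM, Ccnd3 at 13.1 FPKM, Cdkn1b at 4.56 FPKM and Ccne2 at 0.535 FPKM. The neighbours Ccnd2 (12.7 to 13.8 FPKM) and Ccnd3 (12.6 to 13.7 FPKM) did not differ beyond counting error there, and the other neighbours had intervals that did not overlap. In the knockdown library the order was Cdkn1a at 211 FPKM, Ccnd1 at 177 FPKM, Ccne1 at 49.2 FPKM, Ccnd3 at 36.8 FPKM, Cdkn2c at 31.3 FPKM, Ccnd2 at 12.0 FPKM, Cdkn1b at 7.56 FPKM and Ccne2 at 1.39 FPKM, with no overlap between neighbours. Ccne1 and Ccnd3 thus stood above Cdkn2c in the knockdown library and below it in the control library. Cdkn2a and Cdkn2b had 0 reads in both libraries.

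**Figure D1:**
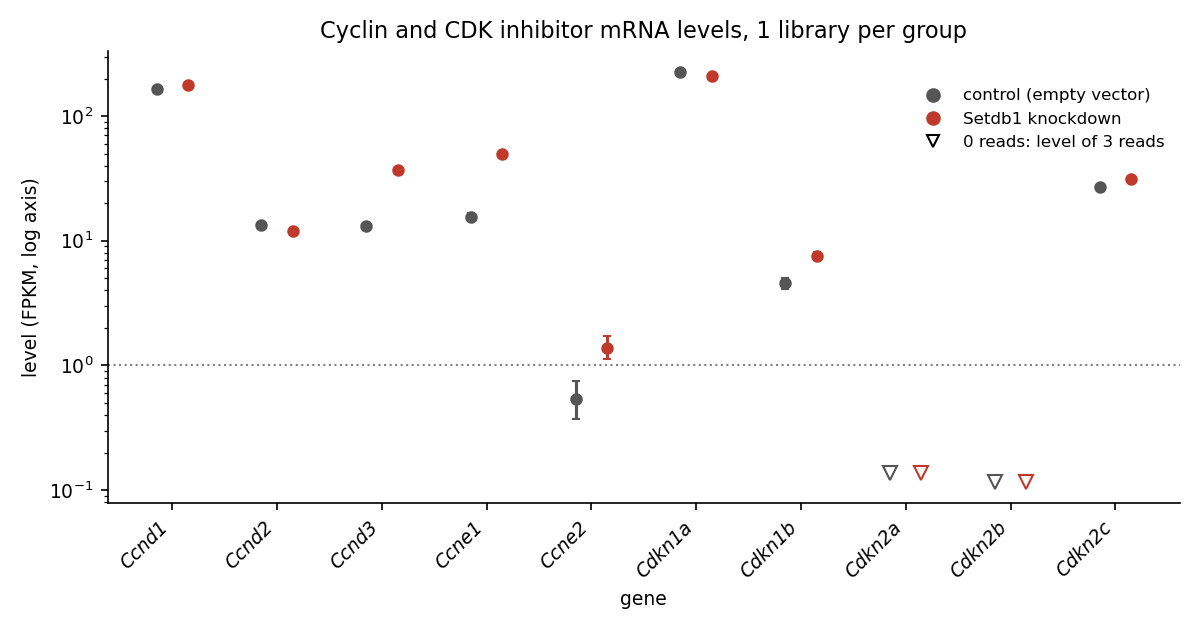
Levels of the 10 genes in FPKM on a log axis, with grey points for the control library, red points for the knockdown library and bars for the 95% Poisson interval of the reads. Ccnd3, Ccne1, Ccne2 and Cdkn1b are visibly higher in the knockdown library, Ccnd1, Ccnd2, Cdkn1a and Cdkn2c lie close together, and open triangles give the level that 3 reads would have for Cdkn2a and Cdkn2b, which had 0 reads.

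Of the 10 members, Ccnd3 and Ccne1 were higher by 2-fold or more in the knockdown library, and 0 members were lower by that margin. Among all 10671 genes that reached 1 FPKM in at least 1 library, the same margin was met by 6.81% on the higher and by 4.85% on the lower side. At 1.5-fold, 4 members were higher, with Ccne2 and Cdkn1b added, against 16.9% of all genes, and 0 were lower, against 14.3%. At 4-fold no member was higher or lower, against 1.09% and 0.525% of all genes. With a pseudocount of 0.1 in place of 1, 3 members were 2-fold higher, with Ccne2 as the third, against 10.6% of all genes, and 0 were lower, against 8.15%. At 1 FPKM, 8 members were counted. Ccne2 was counted only through the knockdown library, where it was higher, so neither the count nor the median serves as support. The median log2 ratio of these 8 was 0.42, beside -0.00039 over all genes at that level, whose quartiles were -0.36 and 0.38. It was 0.22 over the 7 members that reached 5 FPKM, without Ccne2, and 0.16 over all 10 members with Cdkn2a and Cdkn2b at 0. Cdkn1b reached 5 FPKM only in the knockdown library, where it was higher, so the median at 5 FPKM is no support either.

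Ccnd1, on chromosome 7 from 144929931 to 144939925 (GRCm38, minus strand), encodes cyclin D1, the main sensor of growth factor signalling in the family. It had 14524 reads in the control and 15621 in the knockdown library. The levels of 165 and 177 FPKM gave a log2 ratio of 0.10, and the reads stood at a ratio of 1.04 (1.02 to 1.06). Both libraries were high, with the knockdown level 7.55% above the control level. Of its exonic bases, 23.4% also belong to Oraov1 on the opposite strand, which had 290 and 635 reads. Use of strand in counting is not given, so for this and the other overlaps below reads of the shared bases could belong to either gene.

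Ccnd2, on chromosome 6 from 127125162 to 127152193 (minus strand), encodes cyclin D2, the D cyclin best known from lymphocytes and granulosa cells. It had 2338 reads in the control library (13.3 FPKM) and 2115 in the knockdown library (12.0 FPKM). Its log2 ratio of -0.13 corresponded to a ratio of reads of 0.875 (0.825 to 0.928). The knockdown library was the lower one by a margin beyond counting error and far below 2-fold. An antisense gene that shares 3.91% of its exonic bases, 9330179D12Rik, had 41 reads in the control and 3 in the knockdown library.

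Ccnd3, on chromosome 17 from 47505051 to 47599691 (plus strand), encodes cyclin D3, which in many tissues accompanies maturation as well as division. Its reads numbered 2159 in the control and 6056 in the knockdown library. Its level went from 13.1 to 36.8 FPKM, with a log2 ratio of 1.42 at percentile 97.1 of all genes at 1 FPKM and with reads at a ratio of 2.71 (2.58 to 2.85). The knockdown library was clearly the higher one. Bysl, on the opposite strand, shares 4.11% of the exonic bases of Ccnd3 and differed the other way, with 2144 reads in the control and 1196 in the knockdown library. A processed pseudogene with the same protein match, Ccnd3-ps, had 0 and 2 reads.

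Ratios of members within a library do not depend on how libraries are scaled. The level of Ccnd1 was 12.5 times that of Ccnd3 in the control library and 4.81 times in the knockdown library, and the ratio of these ratios on reads was 0.383 (0.363 to 0.405). Ccnd2 and Ccnd3 stood at a ratio of 1.01 in the control and 0.326 in the knockdown library (0.323, 0.298 to 0.348). Between Ccnd1 and Ccnd2 the ratio moved less, from 12.4 to 14.8 (1.19, 1.12 to 1.27). Summed over the 3 genes, D cyclin mRNA was 191 FPKM in the control and 226 FPKM in the knockdown library. Ccnd1 made up 86.2% of that sum in the control and 78.4% in the knockdown library, while Ccnd3 made up 6.87% and 16.3%.

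Ccne1, on chromosome 7 from 38097984 to 38107534 (minus strand), encodes cyclin E1, the activator of CDK2 at the start of S phase and a classical E2F target. It had 772 reads in the control and 2453 in the knockdown library. Its level of 15.5 FPKM in the control and 49.2 FPKM in the knockdown library gave the highest log2 ratio of the members, 1.61, at percentile 97.9 of all genes. The read ratio was 3.07 (2.83 to 3.34). No other gene with reads overlaps its model, and no other locus has the same protein match.

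Ccne2, on chromosome 4 from 11191351 to 11204779 (plus strand), encodes cyclin E2, a close relative of cyclin E1 with the same kinase partner. It was the lowest of the members with reads, with 35 in the control and 91 in the knockdown library (0.535 and 1.39 FPKM). The log2 ratio was 0.64 on the scale with the added 1, whereas the read ratio was 2.51 (1.69 to 3.83). Of its exonic bases, 17.4% are shared with Ints8 on the opposite strand, which had 174 and 173 reads, so at these low counts some of the Ccne2 reads could be those of Ints8. Ccne1 stood at 29.0 times the level of Ccne2 in the control and 35.4 times in the knockdown library. This difference between both E cyclins was not detectable at this depth (ratio of ratios 1.22, 0.796 to 1.84). Ccne1 made up 96.7% of E cyclin mRNA in the control and 97.3% in the knockdown library, and the sum went from 16.0 to 50.6 FPKM.

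**Figure D2:**
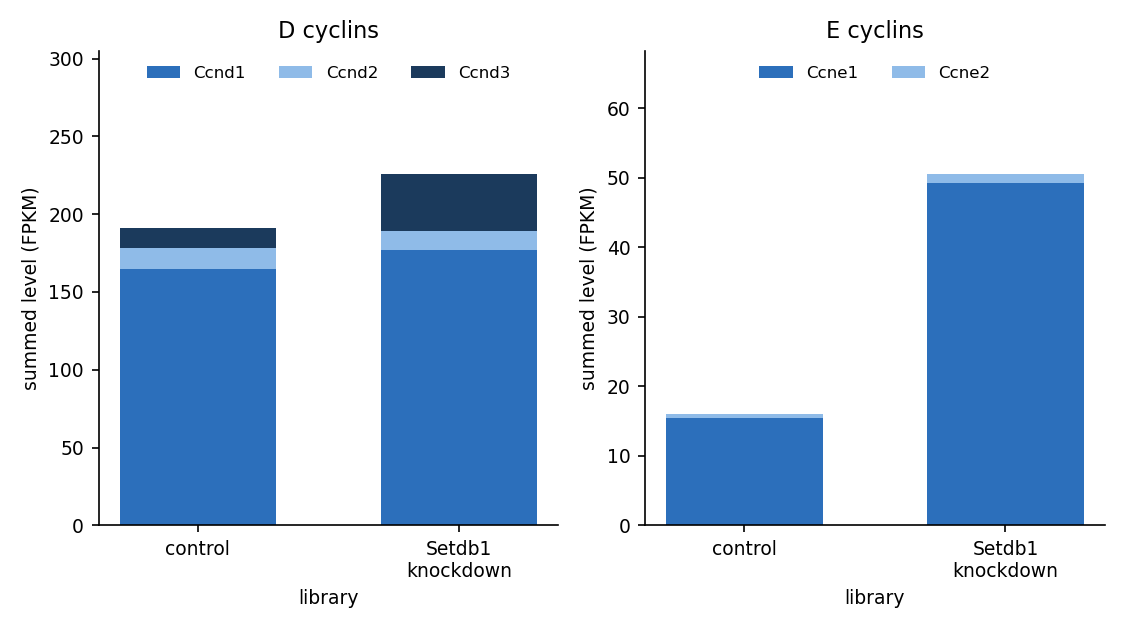
Summed levels in FPKM of the D cyclins (left) and the E cyclins (right) in the control and the knockdown library, with 1 colour per gene. Ccnd1 forms most of the D cyclin bar in both libraries, the Ccnd3 part grows from 13.1 to 36.8 FPKM, and nearly all of the E cyclin bar is Ccne1.

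Among the inhibitors, Cdkn1a, on chromosome 17 from 29090976 to 29100727 (plus strand), encodes p21, the best-known target of p53 among them. It had 14962 reads in the control and 14059 in the knockdown library, or 225 and 211 FPKM. Both values were among the highest 3% of genes at 1 FPKM. The reads stood at a ratio of 0.909 (0.888 to 0.930) and the log2 ratio at -0.09, so the knockdown library was lower by more than counting error and by far less than 2-fold. Trp53, the p53 gene, had 5699 reads in the control and 5256 in the knockdown library. It is named outside the rule for pathway genes, and a link to the Cdkn1a level was not tested.

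Cdkn1b, on chromosome 6 from 134920401 to 134925513 (plus strand), encodes p27, an inhibitor that accumulates in resting cells mainly through protein stability. It had 389 reads in the control and 645 in the knockdown library, with levels of 4.56 and 7.56 FPKM. The log2 ratio of 0.62 stood at percentile 84.4, and the read ratio was 1.60 (1.41 to 1.82). The knockdown library was higher without reaching 2-fold. Per length, Cdkn1a was 49.3 times as abundant as Cdkn1b in the control and 27.9 times in the knockdown library (ratio of ratios 0.567, 0.497 to 0.645). Cip/Kip mRNA summed to 229 FPKM in the control and 219 FPKM in the knockdown library.

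Cdkn2c, on chromosome 4 from 109660876 to 109667189 (minus strand), encodes the INK4 protein p18. It had 1346 reads in the control and 1577 in the knockdown library, or 26.8 and 31.3 FPKM. The reads stood at a ratio of 1.13 (1.05 to 1.22) and the log2 ratio at 0.22, a small margin beyond counting error.

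**Figure D3:**
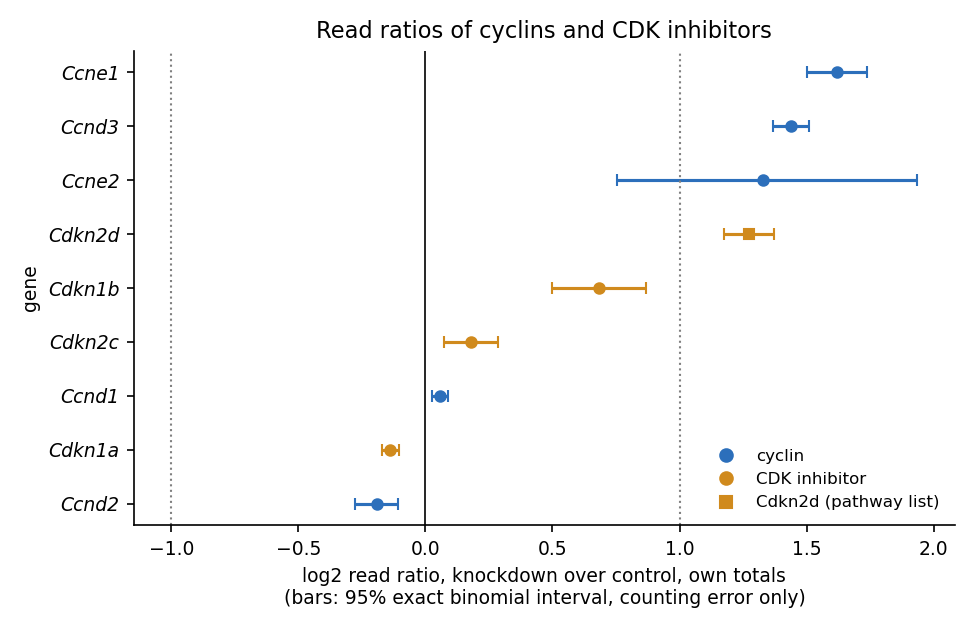
Log2 read ratios, knockdown over control relative to own totals, of the 8 members with reads and of Cdkn2d from the pathway lists, with 95% exact binomial intervals and dotted lines at 2-fold. Ccne1, Ccnd3 and Cdkn2d lie beyond the 2-fold line with their whole interval, the Ccne2 interval crosses it, and the other genes lie inside it.

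Cdkn2a, which encodes both p16 and ARF from different first exons, lies on chromosome 4 from 89274471 to 89294653, and Cdkn2b, which encodes p15, lies beside it from 89306299 to 89311039, both on the minus strand. Neither had a read in either library. A floor of 3 reads would be 0.137 FPKM for Cdkn2a and 0.115 FPKM for Cdkn2b, and the Poisson intervals of a count of 0 end at 0.168 and 0.142 FPKM. Reads alone cannot tell a deleted gene from a silent one.

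Genes around them were then listed to see how far the stretch without reads went. Mtap, whose annotated end lies 93.4 kb before Cdkn2a, encodes an enzyme of methionine salvage and is often lost together with CDKN2A in human tumours. It was expressed here, with 1927 reads in the control and 1379 in the knockdown library (31.9 and 22.8 FPKM, log2 ratio -0.47). Farther out on the same side, Klhl9 had 180 and 208 reads, Focad 845 and 691, Mllt3 366 and 198, and Hacd4 99 and 1, each control first. Ifnb1, the interferon beta gene, had 1 read in the control and 5 in the knockdown library. On the other side of Cdkn2b, Dmrta1 had 1 and 0 reads and Elavl2 had 0 in both. Between Mtap and Dmrta1 the table lists 11 loci over 498 kb, of which 4 had reads, 63 in the control and 57 in the knockdown library in all. Mtap was thus transcribed in both libraries beside a pair of inhibitor genes at 0.

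**Figure D4:**
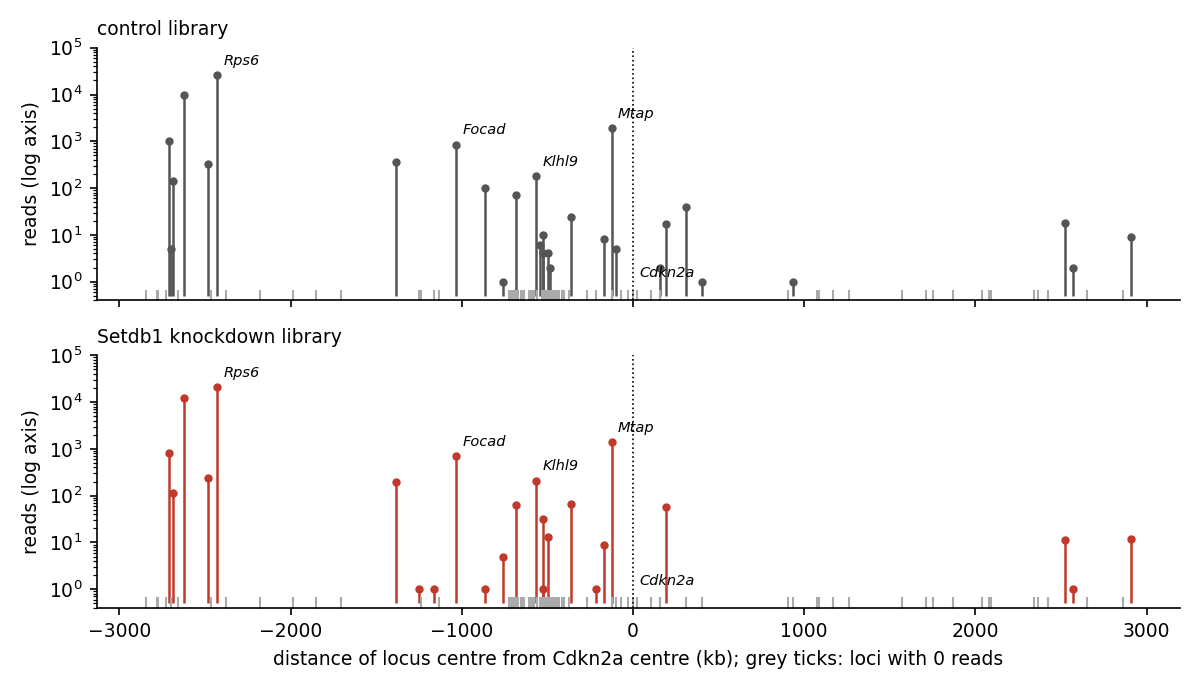
Reads per locus on a log axis against the distance in kb from the centre of Cdkn2a, for the control library (top) and the knockdown library (bottom), with grey ticks for loci at 0 reads. Mtap, with 1927 and 1379 reads, is the last gene with many reads before Cdkn2a, which is at 0 in both, and few loci beyond it have reads.

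The rest of the pathway was described by 8 lists with 78 genes, of which 75 reached 1 FPKM. Of these, 5 were higher by 2-fold or more in the knockdown library (Cdkn2d, E2f2, Id1, Junb and Jun) and 2 were lower by that margin (Myc and Cks1b). Together they were 9.33% of the 75, beside 11.7% of all genes at 1 FPKM. Jun was named after its values were seen, because it completes this count. By sign alone, 37 of the 75 were higher and 38 lower, beside 5293 and 5336 of all 10671 genes at 1 FPKM. Counts by sign in the lists below stand beside that share. Those at 2-fold stand beside 6.81% of all genes on the higher and 4.85% on the lower side.

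Among other inhibitors, Cdkn2d, which encodes the INK4 protein p19, had 1187 reads in the control and 2964 in the knockdown library. Its level was 40.3 FPKM in the control and 101 FPKM in the knockdown library (log2 ratio 1.30), and its reads stood at a ratio of 2.42 (2.26 to 2.59). Relative to Cdkn2c its reads were 2.13 times as high in the knockdown as in the control library (1.93 to 2.36), a pair chosen after its values were seen. INK4 mRNA summed to 67.0 FPKM in the control and 132 FPKM in the knockdown library, all of it from Cdkn2c and Cdkn2d. The third Cip/Kip gene, Cdkn1c, which encodes p57, had 0 reads in both libraries.

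Of the kinases and the complex that activates them, 5 of 6 were lower in the knockdown library and none reached 2-fold. Cdk4, the main partner of D cyclins, had 15609 reads in the control and 10995 in the knockdown library (256 and 181 FPKM, log2 ratio -0.50). The log2 ratio of Cdk6 was -0.24 and that of Cdk2, the partner of E cyclins, 0.32. Cdk7, Ccnh and Mnat1, which form the CDK-activating kinase, had log2 ratios of -0.45, -0.30 and -0.34. Per length, Ccnd1 stood at 0.642 of the Cdk4 level in the control and 0.980 in the knockdown library (ratio of ratios 1.53, 1.48 to 1.58). Ccne1 stood at 1.77 times the Cdk2 level in the control and 4.41 times in the knockdown library (2.49, 2.22 to 2.80). Both pairs were chosen after their values were seen. Cdk4 overlaps Tspan31, which is annotated beside it, and 6 other loci carry its protein match, with 0 reads.

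Enzymes that add or remove inhibitory phosphates on CDKs did not reach 2-fold. The phosphatase Cdc25a, which acts on CDK2 complexes, had a log2 ratio of 0.63, Cdc25b 0.52 and Cdc25c -0.31, while the kinases Wee1 and Pkmyt1 stood at 0.22 and -0.33. None of the 3 pocket protein genes was higher in the knockdown library. Rb1, the retinoblastoma gene, had 211 and 207 reads (1.87 and 1.84 FPKM, log2 ratio -0.02). Rbl1 stood at 5.59 and 3.92 FPKM (log2 ratio -0.42) and Rbl2 at 2.11 and 1.82 FPKM (-0.14). The counting interval of the Rb1 read ratio, 0.780 to 1.16, included 1.

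Of 9 E2F and DP genes at 1 FPKM, 1 was higher by 2-fold and 0 were lower by 2-fold, with a median log2 ratio of 0.05. E2f2, an activating E2F, had 128 reads in the control and 781 in the knockdown library, a ratio of 5.90 relative to the totals (4.89 to 7.17), and its log2 ratio was 1.99. E2f1, the activator most closely tied to RB, followed at 0.88 with 30.6 FPKM in the control and 57.0 FPKM in the knockdown library. The lowest were E2f4, a mainly repressive member, at -0.41 and E2f5 at -0.12. Of 20 genes that E2F factors are known to drive at the G1/S boundary, 15 were higher and 5 lower, 0 of them by 2-fold. These counts were 14 and 6 under 3 other scalings, where Pcna changed sign. The median was 0.19, and the read-ratio intervals of several of the 20 genes included 1. Cdc6, which loads the replicative helicase, was highest at 0.62, followed by Mybl2 at 0.53, while Mcm6 at -0.17 and Ccna2 (cyclin A2) at -0.10 were lowest. The log2 ratios of Ccne1 and E2f2 were above that of each of these 20 genes. Both were singled out as the highest of their own lists, so this is no support. A link between Ccne1 and E2F factors was not tested.

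Genes of cyclin and inhibitor degradation had a median of -0.18 over 16 genes at 1 FPKM, with 12 lower and 4 higher. These counts were 13 and 3 under the same scalings, where Cul4a changed sign. The list also holds a deubiquitinase gene, which is among the higher ones. Cks1b, a cofactor with which the ubiquitin ligase SCF-Skp2 recognises p27, had 3246 reads in the control and 1464 in the knockdown library (154 and 69.4 FPKM, log2 ratio -1.14, read ratio 0.436, 0.410 to 0.464). In the same list Fbxo31, a subunit of a ligase for cyclin D1, stood at -0.62, the deubiquitinase gene Usp28 at 0.54 and Rbx1, the RING subunit of cullin ligases, at 0.45. Known regulators of the member genes had the widest range of log2 ratios among the lists, from -1.48 to 2.53. Of these 15 genes, 3 were higher and 1 was lower by 2-fold, beside 6.81% and 4.85% of all genes. The lists were chosen with earlier results of these data known, so this range is no support. Myc, which represses Cdkn1a and Cdkn2b, had 4400 reads in the control and 1547 in the knockdown library (log2 ratio -1.48, read ratio 0.340, 0.321 to 0.360). Junb and Jun, AP-1 subunits that act on Ccnd1, stood at 1.71 and 1.70. Id1, an inhibitor of E-protein transcription factors and a known repressor of Cdkn2a, was highest at 2.53, from 229 to 1429 reads, and Klf4, an activator of Cdkn1a, stood at -0.82. Whether any of these moved together with the members across cultures was not tested.

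**Figure D5:**
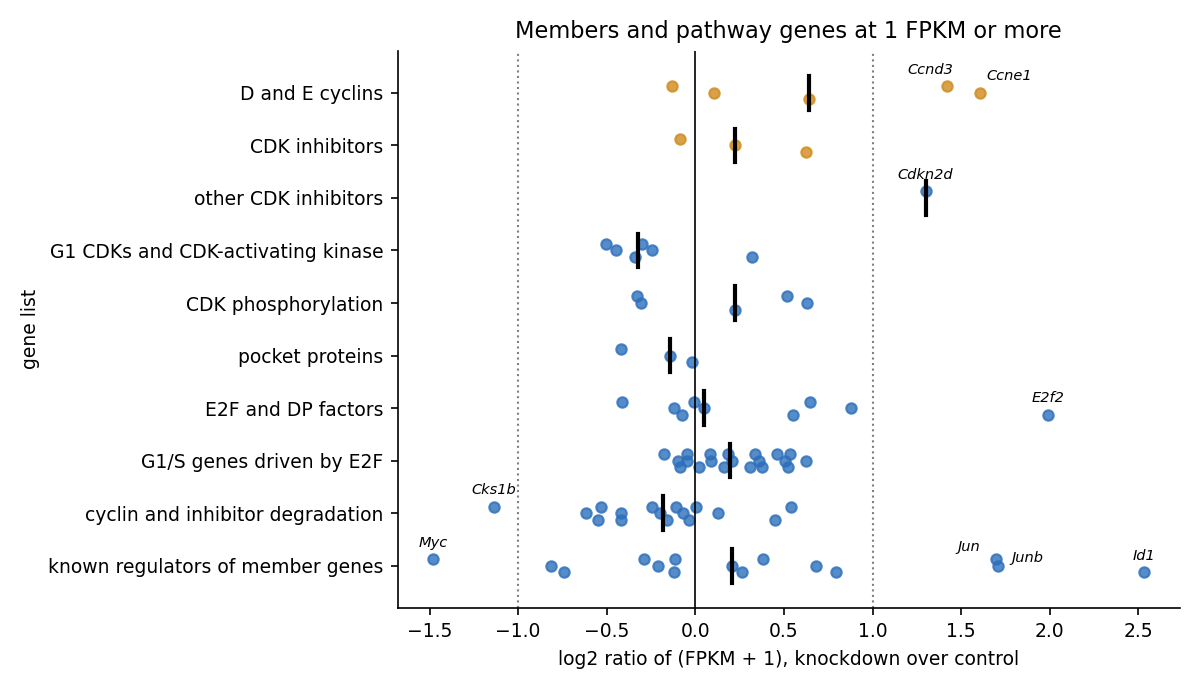
Log2 ratios of (FPKM + 1), knockdown over control, of members (orange) and pathway genes (blue) at 1 FPKM or more, by list, with a black bar at each list's median and dotted lines at 2-fold. Ccnd3 and Ccne1 are the members past 2-fold, Cdkn2d, E2f2, Jun, Junb and Id1 are the pathway genes past it on the higher side, and Myc and Cks1b on the lower side.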

How the data were processed

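RNA was sequenced from 1 knockdown and 1 control library, grouped by the genotype in the labels. The authors deposited FPKM values with the length, position and type of each gene model, per the file headers. HISAT2, featureCounts 1.5.0-p3, CASAVA and GRCm38 are named in the submitters' processing notes, without roles. Use of strand in counting is not given in the sources used here. All 10 members had the same start and end in the GENCODE annotation of GRCm38.

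Reads were recovered as FPKM times gene length over the smallest such product, and 100% of values above 0 came out whole within 0.001. Both libraries had been divided by a common depth of 18731117 reads, so log2 ratios of (FPKM + 1) carry the 1.03 ratio of totals, which read ratios do not. Genes were counted at a 2-fold threshold where FPKM reached 1 in at least 1 library. Ratios of ratios are conditional odds ratios with exact intervals.

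The text names all members and the neighbours of Cdkn2a. It names every pathway gene at 1 FPKM in lists of up to 6 genes and the 2 highest and 2 lowest of longer lists. Among pathway genes, Trp53, Jun, Pcna, Cul4a and Cdkn1c are named outside this rule. Members and lists were chosen with earlier results of these data known. RefSeq promoter windows were matched by symbol for 7 of 10 members. Calculations ran in Python 3.11.15 with scipy 1.17.1 and numpy 2.4.6, tables in pandas 2.3.3 and plots in matplotlib 3.10.9.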

Additional observations from a re-analysis of the deposited data

How the results depend on the processing

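Alternatives were a pseudocount of 0.1, scaling by own read totals, by the upper quartile, by the median ratio or without the 100 highest genes, values summed over loci with the same protein match, thresholds of 1.5-fold and 4-fold, and no filter or a filter at 5 FPKM. Of 48 alternative log2 ratios of the 8 members with reads, 42 stayed within counting error and 6 moved, those of Ccnd1 and Cdkn1a under 3 scalings. Under those scalings Ccnd1 lay between 0.04 and 0.06 and Cdkn1a between -0.15 and -0.14. No member changed sign. Each scaling multiplies all knockdown values by 1 factor, so whether a value moved depends on the width of the gene's counting interval. Ccnd1 and Cdkn1a had the most reads and so the narrowest intervals. Ccne2, at 0.64 in the main setting and 1.23 with the pseudocount of 0.1, still counted as within counting error. The split into 42 and 6 is therefore no measure of stability. The 42 include all values under median-ratio scaling and, except for Ccnd3, all values summed over loci. These repeated the main values and could not move, so they are no check. Ccne1 stayed between 1.55 and 1.66 and Ccnd3 between 1.36 and 1.48. With the pseudocount of 0.1, Ccne2 was at 1.23 and became the third member past 2-fold. The count of members at least 2-fold higher was 4 at 1.5-fold, as that threshold makes it, and 0 at 4-fold. The median of the members, 0.42, was 0.16 without a filter, where both genes at 0 enter, and 0.22 with the filter at 5 FPKM, where Ccne2 leaves. Cdkn1b passed the filter at 5 FPKM only through the knockdown library. The other alternative counts and within-library ratios stayed within 1.5 times the count or within counting error, and the other medians lay between 0.37 and 0.47. Within-library ratios were recomputed only with the sum over loci, which changed only those with Ccnd3. Median-ratio scaling left the values as deposited, since the median ratio over genes with reads in both libraries was 1. No paired analysis was possible because the groups hold 1 library each, which also prevents leaving one out. Depth limits Ccne2, with 35 reads in the control library, and Cdkn2a and Cdkn2b, with 0.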

Other observations

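A few loci near the members differed between the libraries at low read counts and were singled out after their values were seen. Beyond Cdkn2b on chromosome 4, a locus without a symbol from 89477648 to 89482984 had 17 reads in the control and 57 in the knockdown library. Another such locus from 89584999 to 89605318 had 39 reads in the control and 0 in the knockdown library. The fatty acid elongation gene Hacd4, on the Mtap side, had 99 reads in the control and 1 in the knockdown library, a read ratio of 0.00977 with a counting interval of 0.000245 to 0.0557, and its model overlaps that of Focad. On the strand opposite Cdkn1a, the unclassified transcript AC167363.2, which shares 7.68% of the exonic bases of Cdkn1a, had 11 reads in the control and 44 in the knockdown library.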
